A study of Mus musculus with 44 samples.

Results

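The 10 genes described here make, conjugate, move and regulate bile acids in mouse liver. They were taken by symbol from a count table of 35249 genes: the cytochrome P450 enzymes Cyp7a1, Cyp8b1, Cyp27a1 and Cyp7b1, the conjugating enzymes Slc27a5 and Baat, the transporters Abcb11 and Slc10a1, the bile acid receptor gene Nr1h4 and the repressor gene Nr0b2. All 10 were found, and all 10 were among the 14862 genes that passed the filter on low counts. RNA from whole liver was sequenced in 44 libraries from wild-type (WT) mice and from Ripk3-/- and Mlkl-/- mice, which lack a kinase and the pore-forming effector of necroptosis, an inflammatory form of cell death. Mice were put on a diet at 2 months of age and kept on it for 6 months. The WT groups had 6 libraries each on control chow and on each of 2 choline-deficient diets, 1 low in fat (CD-LFD) and 1 high in fat (CD-HFD). The Ripk3-/- groups had 6, 3 and 4 libraries on the same diets, and the Mlkl-/- groups had 6, 4 and 3. The labels give no sex, litter, batch or hour of collection and no further detail of the alleles, so p-values measure the spread between libraries labelled as replicates.

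Bile acids are made from cholesterol in hepatocytes. The classic route starts with Cyp7a1, and Cyp8b1 then adds the hydroxyl group that leads to cholic acid. The alternative route starts with Cyp27a1, which oxidises the cholesterol side chain, and passes through Cyp7b1. Slc27a5 (bile acid CoA ligase) and Baat join the finished acids to taurine or glycine, Abcb11 (the bile salt export pump) secretes them into bile, and Slc10a1 (NTCP) takes them back up from portal blood. Nr1h4 encodes FXR, the nuclear receptor for bile acids, which is known to raise Abcb11 and Nr0b2, and Nr0b2 encodes SHP, known as a repressor of Cyp7a1 and Cyp8b1.

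The upstream sequences of Cyp8b1 and Abcb11 are shown because, among the windows at hand, they are the synthesis enzyme and the transporter with a motif match nearest to the start site. RefSeq windows (build GRCm38.p6, 250 bases before to 50 after the start site) were at hand for 6 of the 10 genes. The 250 bases before the start site run from 5′ to 3′ on the gene's own strand. In Cyp8b1 (chr9:121916306-121916555, minus strand), the capitals mark the only match to the HNF4A motif searched, CAAAGTCCA, which begins 67 bases before the start site. In Abcb11 (chr2:69342617-69342866, minus strand), they mark the short nuclear receptor motif AGGTCA read on the opposite strand, 56 bases before the start site.
Cyp8b1: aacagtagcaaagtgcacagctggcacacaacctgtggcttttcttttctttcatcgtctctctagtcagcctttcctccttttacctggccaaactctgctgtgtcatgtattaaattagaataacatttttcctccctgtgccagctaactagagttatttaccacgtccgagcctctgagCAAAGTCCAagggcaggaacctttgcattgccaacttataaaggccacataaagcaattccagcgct
Abcb11: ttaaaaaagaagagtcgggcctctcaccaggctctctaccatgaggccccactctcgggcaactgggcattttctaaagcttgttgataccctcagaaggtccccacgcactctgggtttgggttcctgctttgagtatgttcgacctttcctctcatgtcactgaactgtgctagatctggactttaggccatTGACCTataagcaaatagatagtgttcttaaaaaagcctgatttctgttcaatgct
The HNF4A motif was in 0.475% of 32851 windows of the same length, counted on both strands, and in 1 of the 6 genes. AGGTCA was in 16.3% of windows and in Abcb11, Nr1h4 and Slc10a1. The inverted repeat AGGTCANTGACCT, known as an FXR element (0.00913% of windows), TCAAGGTCA, known for NR5A2 (0.423%), and the D-box TTATGTAA (0.938%) had no match in these windows of the 6 genes. The NR5A2 motif and the inverted repeat both contain AGGTCA. A match describes letters only.

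Total counts ran from 2476268 to 12471844 in every library but WT CD-LFD replicate 3, which had 88204703. Ripk3 was at 0 to 0.263 CPM (counts scaled to a library's total) in the Ripk3-/- libraries except control replicate 5, at 1.01 (WT 0.439 to 5.94), and Mlkl was at 1.24 to 6.02 CPM in the Mlkl-/- libraries except CD-HFD replicate 1, at 14.4 (WT 2.02 to 22.6, which overlaps, and the labels do not give the deleted part). The log2 ratio of Arntl to Dbp, clock genes that peak at opposite times of day, fell into a high set of 11 libraries (at or above -2.68) and a low set of 33 (at or below -3.71). The high set held 4 of 6 WT control, 6 of 6 WT CD-LFD and 1 of 6 WT CD-HFD libraries and no knockout library, so hour of collection and group cannot be fully told apart. WT control replicates 5 and 6 had 7.62% and 13.4% of counts in mitochondrial genes, against 1.47% to 4.11% in the other 4. Ripk3-/- CD-LFD replicate 3 had 11.7 CPM of Xist, an RNA of the inactive X chromosome, where every other library had at most 1.91, and the Y-linked gene Ddx3y was present in every library (33.7 CPM or more). Hepatocyte markers were present in every library (9 of 10 listed genes matched, none at 0).

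On CD-HFD most of the pathway was lower than on control chow in all 3 genotypes. In WT liver 8 of the 10 genes fell, all but Cyp7a1 and Nr0b2, with a median log2 change of -1.68 over the 10, where 24.1% of all genes tested were called lower, 23.5% were called higher and the median of all genes was -0.07. In Ripk3-/- liver 8 fell, all but Cyp7a1 and Cyp8b1 (21.7% of all genes lower), and in Mlkl-/- liver 7 fell, all but Cyp7a1, Cyp8b1 and Nr0b2 (20.3% lower). A gene was called at an adjusted p under 0.05 in edgeR's quasi-likelihood test over all 44 libraries, with Benjamini-Hochberg adjustment over all genes tested. Levels below are CPM after TMM scaling and are compared only within a gene, since gene length was not used.

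**Figure D1:**
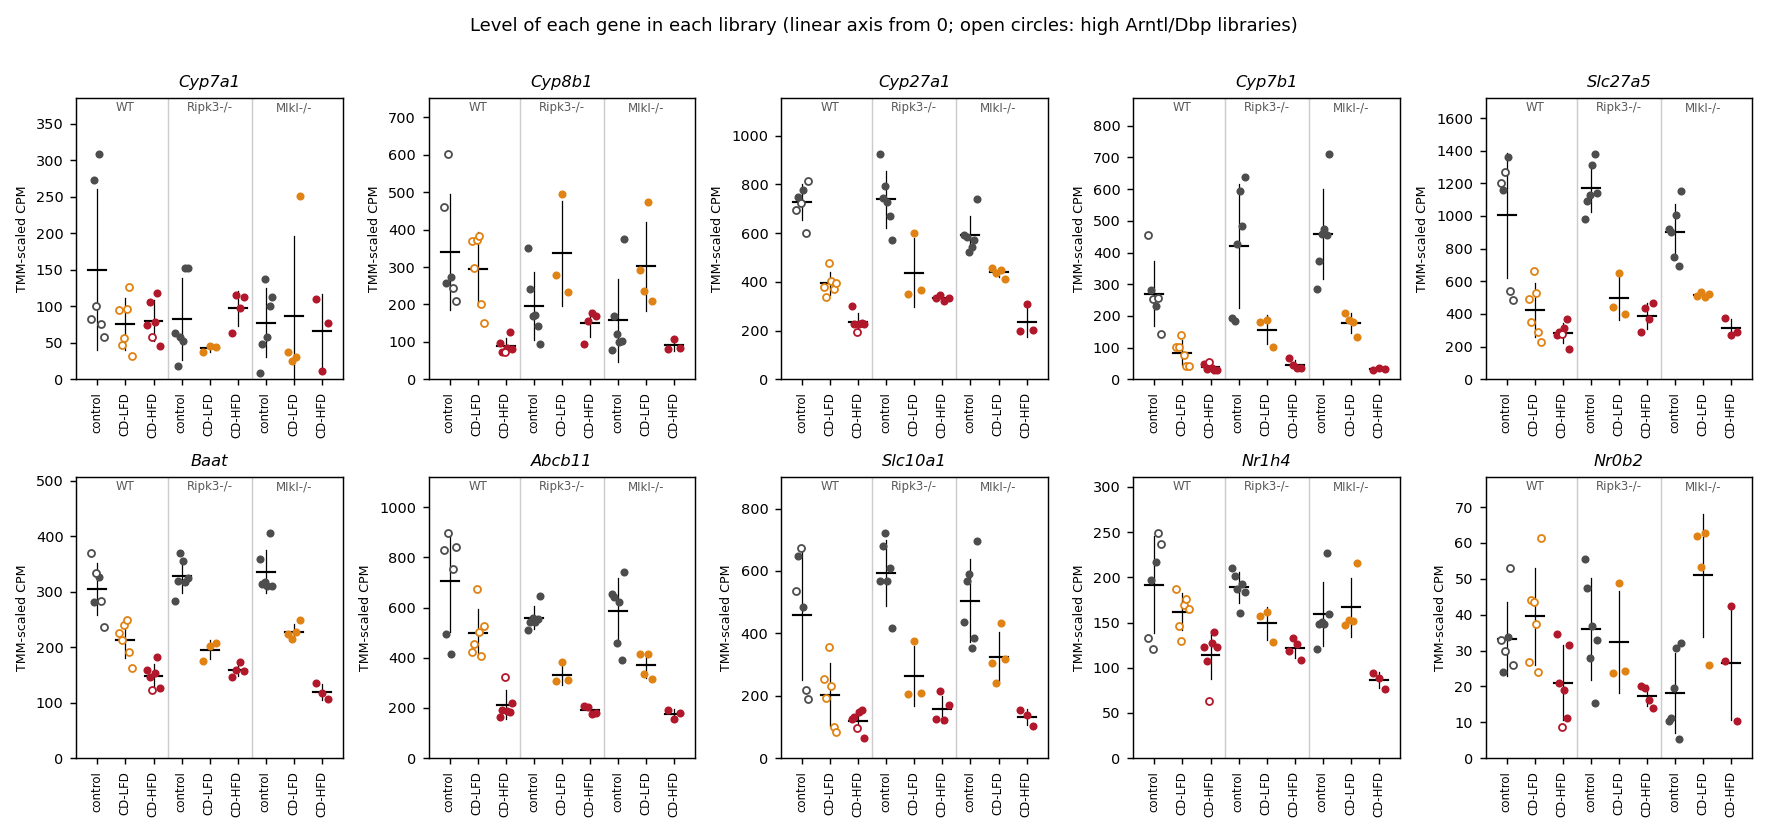
TMM-scaled CPM of the 10 genes (linear axes from 0) in each of the 44 libraries, grouped by genotype and diet; points are libraries, horizontal lines group means, vertical lines 1 SD cut at 0, and open circles the 11 libraries with a high Arntl-to-Dbp ratio. Cyp7b1 falls in steps from control chow to CD-LFD to CD-HFD in each genotype, whereas Cyp7a1 scatters as widely within groups as between them.

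CD-LFD gave a smaller set. In WT liver 6 genes fell (Cyp27a1, Cyp7b1, Slc27a5, Baat, Abcb11 and Slc10a1; 14.0% of all genes lower), and in Ripk3-/- liver the fit over all 44 libraries called these 6 too (10.1%). Without Ripk3-/- CD-LFD replicate 3, the library with Xist, 3 were called, and the share of all genes in that fit is not given here. The part of that library in the count was not tested further. The WT count was also 6 with the clock phase as a covariate, and 3 (Cyp27a1, Cyp7b1 and Abcb11) among the high-ratio libraries, a fit with 2 fewer controls in which Slc27a5 (-1.03, adjusted p = 0.0709), Baat (-0.50, 0.0806) and Slc10a1 (-0.98, 0.176) were not called. With library size alone or hepatocyte scaling, Abcb11 and Baat were not called in WT, nor was Abcb11 in Ripk3-/- liver (-0.45, adjusted p = 0.108, and -0.44, 0.188), and hepatocyte scaling also lost Ripk3-/- Cyp27a1 (-0.47, 0.0523). In Mlkl-/- liver 5 of these fell, Slc10a1 being the exception (18.3%), and Cyp8b1 and Nr0b2 rose (19.7% of all genes higher). Set against CD-LFD, CD-HFD livers had 7 genes lower in WT (all but Cyp7a1, Slc27a5 and Nr0b2; 7.4% of all genes), 2 lower in Ripk3-/- (Cyp7b1 and Abcb11; 3.08%) and 7 lower in Mlkl-/- (Cyp8b1, Cyp27a1, Cyp7b1, Baat, Abcb11, Slc10a1 and Nr1h4; 9.14%). In Mlkl-/- liver Slc27a5 was called lower too with DESeq2 (-0.70, adjusted p = 0.0479), in a fit of these groups alone (-0.76, 0.00191) and among low-ratio libraries (-0.76, 0.00505). In WT liver Nr1h4 was not called with library size alone (-0.33, adjusted p = 0.152) or no count filter (-0.50, 0.0508). Scaled to hepatocyte markers, 4 were called lower in WT (Cyp8b1, Cyp27a1, Cyp7b1 and Abcb11; 2.16% of all genes), 1 in Ripk3-/- (Cyp7b1; 0.653%) and 2 in Mlkl-/- (Cyp8b1 and Cyp7b1; 1.1%). The comparisons within a genotype share libraries, so their lists are not independent.

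Markers of other cells moved with the diet. In WT liver on CD-HFD, 7 of 7 cholangiocyte markers were higher (summed level 683 to 1139 CPM against 46.1 to 83.5 on control chow), as were 5 of 7 macrophage and 5 of 6 stellate cell markers, while 5 of 5 endothelial markers were lower (summed level 67.8 to 111 against 153 to 192 CPM), as was Clec4f of the macrophage list (-1.68, adjusted p = 0.00154). Of 9 hepatocyte markers, 7 were lower and 1 was higher (summed level 63999 to 104667 against 94300 to 163090 CPM). The T cell markers Cd3e, Cd3d and Cd8a were higher on CD-HFD in all 3 genotypes, and Cd4 was not called. Summed T cell levels were low (WT 7.03 to 19.1 against 1.71 to 4.56 CPM). On the same diet all 7 cholangiocyte markers were higher in Ripk3-/- and in Mlkl-/- liver too. Macrophage markers were also higher in both knockouts, except Clec4f in both and Cd5l in Ripk3-/-, as were stellate cell markers except Lrat. The hepatocyte sums of the knockouts did not overlap the controls, at 71896 to 100147 against 119705 to 162307 CPM in Ripk3-/- (7 of 9 markers lower) and 76469 to 100979 against 115077 to 128327 in Mlkl-/- liver (4 of 9 lower). Of the 5 endothelial markers, 4 were lower in Ripk3-/- and 1 in Mlkl-/- liver. In bulk tissue, fewer hepatocytes and less RNA per hepatocyte cannot be told apart. When libraries were scaled to the hepatocyte markers, the median of all genes moved from -0.07 to 0.49, and 7 members still fell in WT (5.62% of all genes lower), the exception being Nr1h4 (log2 change -0.25). Under that scaling 6 members fell in Ripk3-/- liver (3.2% of all genes lower), Nr1h4 and Nr0b2 losing the call. In Mlkl-/- liver 6 fell (3.43% lower) and Nr0b2 rose (47.1% of all genes higher). On CD-LFD the summed hepatocyte level was 69565 to 118492 CPM in WT (3 of 9 markers lower), 86570 to 144803 in Ripk3-/- (2 lower) and 136159 to 142207 in Mlkl-/- liver (1 lower, 1 higher), the last above all its controls. Cholangiocyte markers were higher on CD-LFD in WT (5 of 7) and Ripk3-/- liver (7 of 7), with 0 called in Mlkl-/-, while stellate markers were higher in all 3 genotypes (5, 4 and 3 of 6), as were macrophage markers (3, 3 and 4 of 7). Endothelial markers were lower in WT (4 of 5), Mlkl-/- (3) and Ripk3-/- liver (3, with 1 higher). The part of these markers in the results was not tested beyond that scaling.

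Cyp7b1 (ENSMUSG00000039519), the oxysterol hydroxylase of the alternative route, had the widest range of group means among the 10 genes, 13.8-fold from 459 CPM in Mlkl-/- controls to 33.3 CPM in Mlkl-/- livers on CD-HFD. In WT liver its level was 142 to 454 CPM on control chow (median 255), 41.5 to 140 on CD-LFD (median 89.1) and 27.8 to 53.2 on CD-HFD (median 34.9). Neither diet group overlapped the controls. The log2 change was -1.68 ± 0.29 (SE) on CD-LFD (adjusted p = 3.61e-05) and -2.83 ± 0.31 on CD-HFD (adjusted p = 5.28e-10). Ripk3-/- controls had 183 to 640 CPM (median 455), and the CD-LFD libraries 180, 187 and 103. The Ripk3-/- CD-HFD values were 67.1, 45.5, 34.1 and 36.3 CPM, all below every control, a log2 change of -3.20 ± 0.37 (adjusted p = 2.16e-09). Mlkl-/- controls had 286 to 710 CPM (median 456), and CD-LFD libraries had 210, 189, 181 and 134. The 3 Mlkl-/- CD-HFD libraries, at 29.4, 37.1 and 33.3 CPM, gave a log2 change of -3.79 ± 0.43 (adjusted p = 1.81e-09). The high-fat diet was also lower than the low-fat one in each genotype, by -1.15 in WT (adjusted p = 0.00314), -1.78 in Ripk3-/- (0.00186) and -2.42 in Mlkl-/- liver (3.71e-05). With the Arntl-to-Dbp phase as a covariate, the WT difference between the diets was -0.91 (adjusted p = 0.121).

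Cyp27a1 (ENSMUSG00000026170), the mitochondrial sterol 27-hydroxylase, moved the same way with a much smaller spread (median coefficient of variation within groups 13%, against 30.9% for Cyp7b1). WT controls had 601 to 815 CPM (median 734), CD-LFD livers 336 to 478 (median 387) and CD-HFD livers 196 to 303 (median 226), so no 2 of these groups overlapped. The log2 change was -0.88 ± 0.13 on CD-LFD (adjusted p = 3.6e-06) and -1.63 ± 0.14 on CD-HFD (adjusted p = 6.65e-13). In Ripk3-/- liver the 4 CD-HFD libraries had 331, 346, 322 and 332 CPM against 573 to 923 in controls, a log2 change of -1.15 (adjusted p = 6.86e-08). In Mlkl-/- liver the CD-HFD libraries had 200, 307 and 201 CPM against 523 to 741, a log2 change of -1.33 (adjusted p = 3.94e-08). CD-LFD lowered the Mlkl-/- level only slightly, to 457, 434, 450 and 412 CPM, a log2 change of -0.44 (adjusted p = 0.0207), which was not called without CD-LFD replicate 4 (adjusted p = 0.0572), with library size alone (-0.29, adjusted p = 0.109) or with no count filter (-0.44, adjusted p = 0.0952).

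Cyp7a1 (ENSMUSG00000028240), the rate-limiting enzyme of the classic route, was not called in any of the 19 comparisons of the fit over all 44 libraries. WT levels were 58.4 to 308 CPM on control chow (median 91.4), 32 to 126 on CD-LFD (median 75.3) and 45.7 to 119 on CD-HFD (median 76.3), and all 3 groups overlapped. The log2 change on CD-HFD was -0.90 ± 0.53 (adjusted p = 0.167), with a 95% interval from -1.98 to 0.19. Its median coefficient of variation was 61.3%, the largest of the 10 genes, and all 8 neighbouring pairs of group means, from 150 CPM in WT controls down to 42.2 in Ripk3-/- CD-LFD livers, lay within 1 SD of each other. The same held for all 8 pairs of Slc10a1, which was called lower on CD-HFD, and of Nr0b2. In the WT controls the level went with the clock phase: the 4 libraries with a high Arntl-to-Dbp ratio had 58.4 to 100.4 CPM, and the 2 with a low ratio had 273 and 308. Elsewhere it did not: the low-ratio knockout controls had 18.9 to 153 CPM (Ripk3-/-) and 8.62 to 137 (Mlkl-/-). In WT liver on CD-HFD the 1 high-ratio library had 58.3 CPM and the low-ratio ones 45.7 to 119. Among low-ratio libraries alone, the WT CD-HFD change was -1.74 ± 0.71 (adjusted p = 0.047), which rests on the 2 low-ratio WT controls. Ripk3-/- livers had 37.1, 45.3 and 44.2 CPM on CD-LFD, and the CD-HFD libraries, at 63.1, 115, 97.3 and 112, did not overlap them. Their difference of 1.2 ± 0.73 (adjusted p = 0.337) was called when fitted on these groups alone (1.21 ± 0.19, adjusted p = 0.00227). The Mlkl-/- libraries were far apart: they had 37.3, 25.6, 31.0 and 251 CPM on CD-LFD, and the CD-HFD libraries 110, 10.8 and 77.2.

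Cyp8b1 (ENSMUSG00000050445), the sterol 12-alpha-hydroxylase whose upstream sequence is shown above, separated the 2 choline-deficient diets from each other. In WT liver it stood at 208 to 601 CPM on control chow (median 266.5), 150.5 to 382 on CD-LFD (median 334) and 73.7 to 128 on CD-HFD (median 82.7). The CD-LFD group overlapped the controls (log2 change -0.21 ± 0.31, adjusted p = 0.662), and every CD-HFD library lay below all others. CD-HFD was lower than control by -1.93 ± 0.32 (adjusted p = 4.36e-06) and lower than CD-LFD by -1.72 ± 0.32 (adjusted p = 9.6e-05). In Ripk3-/- liver the controls had 95.3 to 352 CPM (median 171), CD-LFD livers 280, 496 and 234, and CD-HFD livers 94.7, 155, 177 and 169. No Ripk3-/- diet comparison was called (CD-LFD against control 0.78, adjusted p = 0.121; CD-HFD against control -0.39, adjusted p = 0.381; against CD-LFD -1.17, adjusted p = 0.0671). The CD-LFD difference was called with library size alone (1.06, adjusted p = 0.0215) and with hepatocyte scaling (1.08, adjusted p = 0.0114). The difference between the diets was called in a fit of these groups alone (-1.15, adjusted p = 0.0103) and among low-ratio libraries (-1.17, adjusted p = 0.0461). Mlkl-/- controls had 77.3 to 375 CPM (median 111), CD-LFD livers 291, 236, 473 and 209, and CD-HFD livers 81.7, 108 and 84.4. In these mice Cyp8b1 rose on CD-LFD (0.94 ± 0.35, adjusted p = 0.0294) and was lower on CD-HFD than on CD-LFD (-1.73 ± 0.44, adjusted p = 0.00333). The rise was not called in 6 of 10 fits that each left out a library (adjusted p up to 0.175) or in a fit of these groups alone (0.97, adjusted p = 0.06). Mlkl-/- control replicate 6, at 375 CPM, stood apart from the other controls.

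Slc27a5 (ENSMUSG00000030382), the ligase that activates bile acids for conjugation, fell on both diets. WT controls had 488 to 1361 CPM (median 1181), with replicates 5 and 6 at 542 and 488, CD-LFD livers 231 to 662 (median 419) and CD-HFD livers 183 to 370 (median 284). The log2 change was -1.24 ± 0.22 on CD-LFD (adjusted p = 5.09e-05) and -1.82 ± 0.23 on CD-HFD (adjusted p = 1.12e-08). Only the CD-HFD group was clear of all controls. In Ripk3-/- liver the change was -1.59 on CD-HFD (adjusted p = 2.79e-06), and in Mlkl-/- liver the CD-HFD values of 377, 269 and 291 CPM lay below controls at 694 to 1153 (-1.53, adjusted p = 3.13e-05). Baat (ENSMUSG00000039653), the amino acid transferase of the next step, was the steadiest of the 10 genes within groups, with a median coefficient of variation of 11.5%. Its WT level went from 236 to 369 CPM on control chow (median 305) to 162 to 248 on CD-LFD (median 219) and 122 to 182 on CD-HFD (median 150). The log2 change on CD-HFD was -1.04 ± 0.12 in WT (adjusted p = 1.25e-09), -1.04 in Ripk3-/- (2.92e-08) and -1.49 in Mlkl-/- liver (1.61e-10), with no overlap with controls in any genotype.

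Abcb11 (ENSMUSG00000027048), the export pump whose upstream AGGTCA is shown above, fell on CD-HFD with no overlap in any genotype. WT controls had 414 to 896 CPM (median 790), CD-LFD livers 409 to 674 (median 479) and CD-HFD livers 163 to 323 (median 191). The CD-HFD change was -1.73 ± 0.17 (adjusted p = 7.24e-11), and CD-HFD was also lower than CD-LFD, by -1.23 ± 0.17 (adjusted p = 8.08e-07). The WT change on CD-LFD, -0.50 ± 0.17 (adjusted p = 0.0246), was lost without WT control replicate 3 (adjusted p = 0.0765) and in 5 of 12 fits that each left out a library. It was also not called with library size alone (-0.21, adjusted p = 0.373), hepatocyte scaling (-0.23, 0.426), no count filter (-0.43, 0.109), a fit of these groups alone (-0.46, 0.163) or without WT control replicates 5 and 6 (-0.40, 0.0762), and among high-ratio libraries it was called (-0.72, adjusted p = 0.0193). In the WT controls the level went with the clock phase in the opposite sense to Cyp7a1: 752 to 896 CPM in the 4 high-ratio libraries and 414 and 494 in the 2 low-ratio ones. On CD-HFD the single high-ratio library had 323 CPM and the others 163 to 221. Among low-ratio libraries the CD-HFD change was -1.22 ± 0.17 (adjusted p = 1.83e-06). The Ripk3-/- CD-HFD libraries had 208, 205, 174 and 178 CPM against 509 to 646 in controls (-1.55, adjusted p = 2.94e-08), and the Mlkl-/- ones 193, 157 and 180 against 393 to 740 (-1.73, adjusted p = 3.61e-08).

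Slc10a1 (ENSMUSG00000021135), the sodium-dependent uptake transporter, was 4.98-fold apart between its highest and lowest group means. WT controls had 188 to 672 CPM (median 511), again with replicates 5 and 6 lowest at 219 and 188, CD-LFD livers 83.5 to 356 (median 212) and CD-HFD livers 63.7 to 154 (median 128). The log2 change was -1.18 ± 0.29 on CD-LFD (adjusted p = 0.00198) and -1.94 ± 0.29 on CD-HFD (adjusted p = 6.07e-07), the latter without overlap. In a fit of the compared groups alone the CD-LFD change was -1.14 and was not called (adjusted p = 0.0505). The 2 diets differed by -0.77 (adjusted p = 0.0484), a call lost in 8 of 12 fits that each left out a library (adjusted p up to 0.219). It was also lost with RLE size factors (-0.71, adjusted p = 0.0597), library size alone (-0.54, 0.13), hepatocyte scaling (-0.41, 0.182) and a fit of these groups alone (-0.76, 0.0738). Ripk3-/- CD-HFD livers had 126, 214, 121 and 169 CPM against 418 to 721 in controls (-1.92, adjusted p = 1.15e-05). In Mlkl-/- liver the CD-HFD values of 153, 139 and 102 CPM lay below 354 to 694 in controls (-1.94, adjusted p = 5.87e-05). The Mlkl-/- CD-LFD values of 306, 240, 433 and 317 CPM overlapped the controls (-0.64, adjusted p = 0.11), and this change was called with the replicate block (-0.87, adjusted p = 0.0213), in a fit of these groups alone (-0.61, 0.0321) and among low-ratio libraries (-0.65, 0.0226).

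Nr1h4 (ENSMUSG00000047638), which encodes FXR, had the smallest range of group means, 2.22-fold. WT levels were 121 to 249 CPM on control chow (median 207), 130 to 187 on CD-LFD (median 167) and 63.7 to 139 on CD-HFD (median 123). The CD-HFD change was -0.75 ± 0.16 in WT (adjusted p = 0.000202), -0.64 ± 0.19 in Ripk3-/- (adjusted p = 0.00451) and -0.88 ± 0.21 in Mlkl-/- liver (adjusted p = 0.000589). None of these calls was kept under scaling by library size alone or to hepatocyte markers, and the hepatocyte scaling turned the Ripk3-/- value to 0.05. Nr0b2 (ENSMUSG00000037583), which encodes SHP, was the lowest in counts and did not share one direction across genotypes. In WT liver it had 23.9 to 52.9 CPM on control chow (median 31.4), 24 to 61.4 on CD-LFD (median 40.4) and 8.73 to 34.5 on CD-HFD (median 19.9), and neither diet differed from control (CD-HFD -0.65 ± 0.36, adjusted p = 0.129). Ripk3-/- CD-HFD livers had 20.1, 19.5, 16.1 and 13.9 CPM against 15.2 to 55.4 in controls, a fall of -1.05 ± 0.40 (adjusted p = 0.0313) with overlap. It was not called with RLE size factors (-0.96, adjusted p = 0.0529), library size alone (-0.51, 0.3) or hepatocyte scaling (-0.34, 0.472). Mlkl-/- livers on CD-LFD had 61.9, 53.2, 62.7 and 26.1 CPM against 5.38 to 32.1 in controls, a rise of 1.48 ± 0.39 (adjusted p = 0.00283). The Mlkl-/- CD-HFD values were 27.0, 42.4 and 10.4 CPM (0.54, adjusted p = 0.316), called higher with library size alone (1.06, adjusted p = 0.0411) and hepatocyte scaling (1.16, 0.0216).

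**Figure D2:**
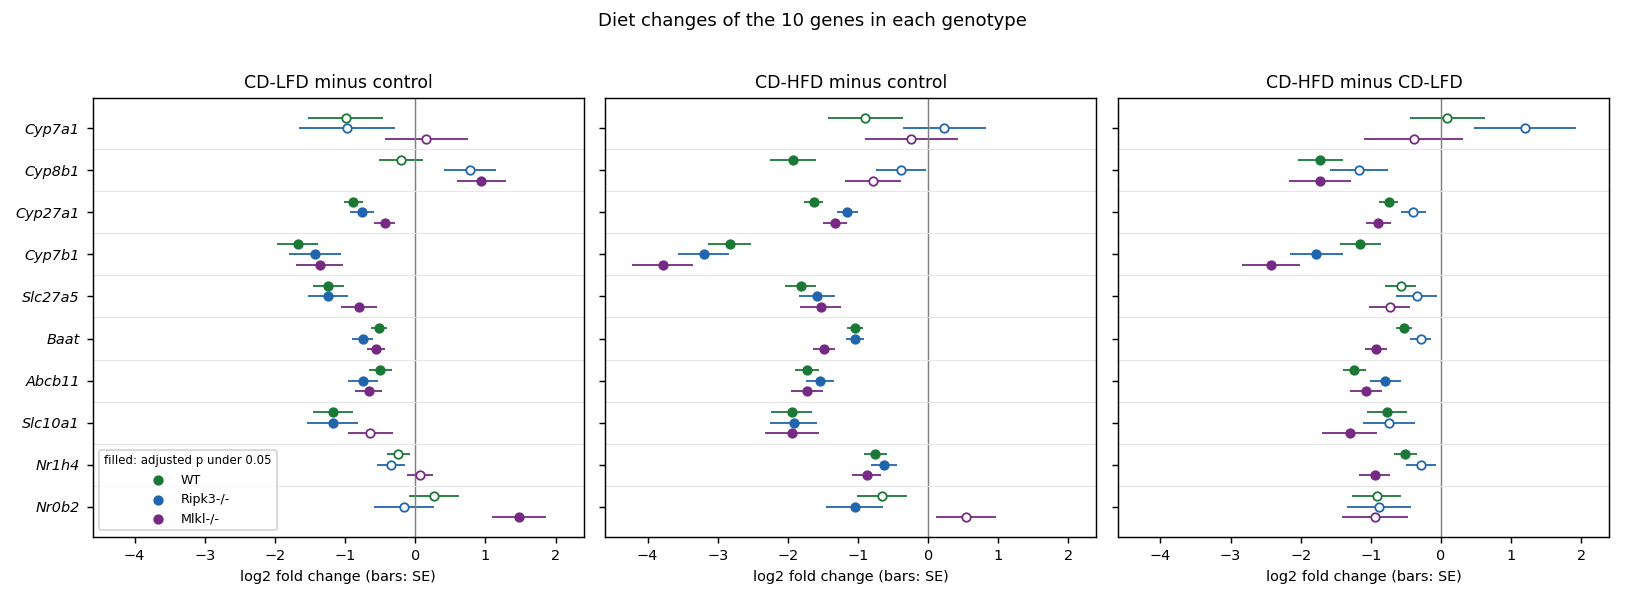
Log2 changes (horizontal axis) of the 10 genes in WT, Ripk3-/- and Mlkl-/- liver for CD-LFD against control, CD-HFD against control and CD-HFD against CD-LFD; points are fitted changes, bars 1 SE, and filled points have an adjusted p under 0.05. Cyp7b1 has the most negative CD-HFD change in each genotype (-2.83, -3.20 and -3.79), and Cyp7a1 has no filled point.

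The knockouts were next set against WT on the same diet. On control chow, Mlkl-/- livers differed from WT in 27.1% of all genes tested, and among the 10 genes in Cyp8b1, which was lower (-1.12 ± 0.32, adjusted p = 0.00783), and Cyp7b1, which was higher (0.77 ± 0.29, adjusted p = 0.0421). Both groups overlapped in each gene, and neither call was kept among low-ratio libraries, which leaves 2 WT controls (Cyp8b1 -0.73, adjusted p = 0.243; Cyp7b1 0.86, adjusted p = 0.128), or with the clock phase as a covariate (-0.97, 0.102, and 0.97, 0.0572). The Cyp7b1 call was also lost with library size alone (0.71, adjusted p = 0.0526), with hepatocyte scaling (0.68, 0.0682) and in 9 of 12 fits that each left out a library, with an adjusted p of up to 0.119 without WT control replicate 6. Ripk3-/- livers on control chow showed no called member (4.47% of all genes), with Cyp8b1 at -0.81 (adjusted p = 0.136) and Cyp7b1 at 0.64 (adjusted p = 0.201).

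On the choline-deficient diets no member was called between a knockout and WT in the fit over all 44 libraries. The share of all genes called was 1.1% for Ripk3-/- and 2.56% for Mlkl-/- on CD-LFD, 0.377% for Ripk3-/- on CD-HFD and 0.0% for Mlkl-/- on CD-HFD, where 1246 genes had an unadjusted p under 0.05. The nearest were Cyp7b1 in Mlkl-/- liver on CD-LFD, higher by 1.08 ± 0.32 (adjusted p = 0.052, interval 0.44 to 1.72), and Cyp27a1 in Ripk3-/- liver on CD-HFD, higher by 0.51 ± 0.15 with no overlap (adjusted p = 0.128). That Cyp7b1 difference was called with RLE size factors, with no filter, with DESeq2 and in a fit of these groups alone (adjusted p = 0.0263 to 0.0494), and Abcb11 was called lower there with library size alone (-0.66, 0.0361) and hepatocyte scaling (-0.84, 0.0167). With phase as a covariate neither was called. On CD-LFD all 6 WT libraries and none of the 4 Mlkl-/- libraries had a high Arntl-to-Dbp ratio, so that fit cannot tell phase from genotype. Whether a genotype changed the response to a diet was tested by 4 interaction terms, none of which called a member (0.0269% of all genes for Ripk3-/- by CD-LFD, 0.478% for Ripk3-/- by CD-HFD, 8.45% for Mlkl-/- by CD-LFD and 4.12% for Mlkl-/- by CD-HFD). The Cyp8b1 term for Ripk3-/- by CD-HFD was 1.54 ± 0.47 (unadjusted p = 0.00206, adjusted p = 0.124), and it was called without Ripk3-/- control replicate 1 (adjusted p = 0.0411). Cyp8b1 terms for Mlkl-/- were 1.14 by CD-HFD (adjusted p = 0.185) and 1.15 by CD-LFD (adjusted p = 0.117), called without Mlkl-/- control replicate 6 (adjusted p = 0.0155 and 0.00796). For Abcb11 and Slc10a1 the Mlkl-/- by CD-HFD intervals ran from -0.55 to 0.55 and from -0.90 to 0.90.

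Because the classic and alternative routes share one tissue, the ratio of their counts within a library is free of the scaling between libraries. The log2 ratio of Cyp7a1 to Cyp7b1 counts averaged -1.08 ± 1.07 (SD, n = 6) in WT controls and 1.04 ± 0.74 (n = 6) on CD-HFD, a difference of 2.12 (exact permutation test, two-sided p = 0.00433, smallest possible 0.00216, adjusted p = 0.0286 over 12 tests). In Ripk3-/- liver it went from -2.50 ± 0.83 (n = 6) to 1.10 ± 0.80 (n = 4) with no overlap, a difference of 3.60 (exact permutation p = 0.00476, the smallest possible, adjusted p = 0.0286). Both calls were lost when any CD-HFD library but WT replicate 3 was left out (adjusted p = 0.0648 in WT and 0.0714 in Ripk3-/-), with differences of 1.91 to 2.20 and 3.43 to 3.996, and fewer libraries also raise the smallest p possible. In Mlkl-/- liver the difference was 3.38, from -2.94 ± 1.14 to 0.44 ± 1.95 (exact permutation p = 0.0238, adjusted p = 0.0952). The WT difference was 1.04 among low-ratio clock libraries (adjusted p = 0.317), where only 2 controls remain. No CD-LFD difference in this ratio was called over all libraries. The WT one was called among high-ratio clock libraries, with 4 controls (1.54, adjusted p = 0.0476). That adjustment ran over only 2 tests, not 12, so the call rests partly on the smaller family. None of the 6 comparisons of the Cyp8b1 to Cyp7a1 ratio was called (WT on CD-HFD -1.18, exact permutation p = 0.0541, adjusted p = 0.162, but 0.30 among low-ratio clock libraries).

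**Figure D3:**
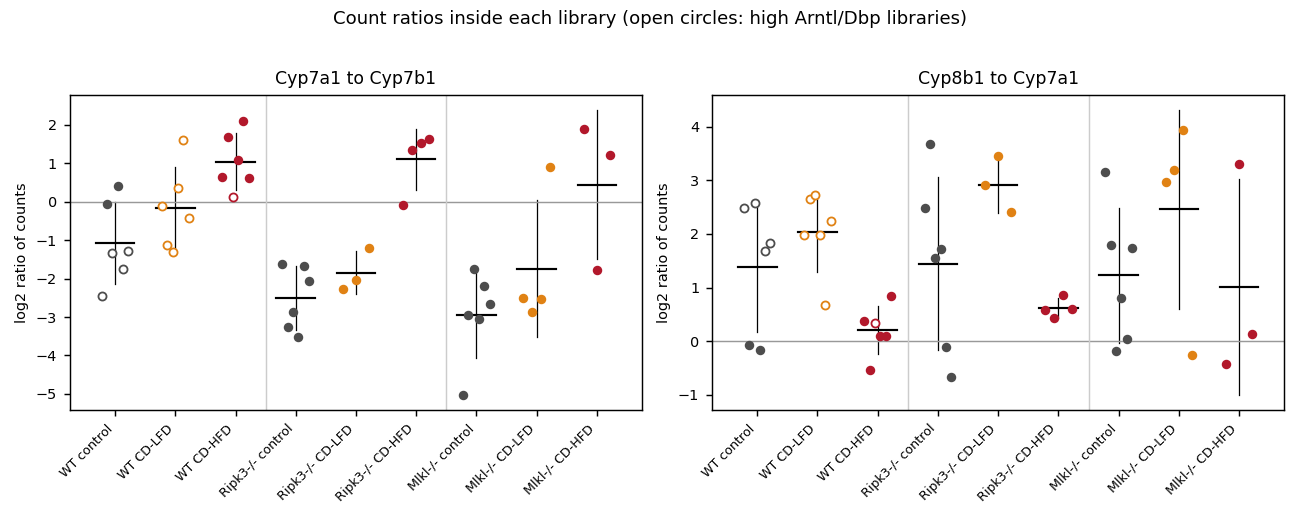
Log2 ratios of Cyp7a1 to Cyp7b1 and of Cyp8b1 to Cyp7a1 counts (vertical axes) in each library by genotype and diet; points are libraries, lines group means, and open circles the libraries with a high Arntl-to-Dbp ratio. The Cyp7a1 to Cyp7b1 ratio is below -1.6 in all Ripk3-/- controls and above -0.1 in all Ripk3-/- CD-HFD libraries.

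Within groups the genes varied together only in part. With the group means removed, over 44 libraries that differ in depth, clock phase and cell make-up, Slc10a1 and Slc27a5 had a Pearson r of 0.84 and Baat and Slc27a5 of 0.61. Pairs with Cyp7a1 ran from -0.36 (with Abcb11) to 0.32. Nr0b2, the repressor gene, had r = -0.33 (Spearman rho -0.34) with Cyp7a1 and 0.30 (rho 0.29) with Cyp8b1. Nr1h4 and Abcb11, the receptor gene and a known FXR target, had r = -0.57 (rho -0.49), and -0.46 (rho -0.40) with the clock phase means removed as well. These are descriptions of 44 libraries with no test.

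Genes with the most similar pattern over the 44 libraries, by Pearson r of log2 CPM among all genes tested, were Serpina3k for Cyp7b1 (0.956), Mup3 for Cyp27a1 (0.943), Slc30a10 for Abcb11 (0.951), Serpina1d for Slc10a1 (0.971), Aldh7a1 for Slc27a5 (0.987) and Cyp2c37 for Baat (0.942). The nearest genes to Cyp8b1 (Cyp2d22, 0.83), Nr1h4 (Timm9, 0.868), Nr0b2 (Eva1a, 0.724) and Cyp7a1 (Eef2k, 0.564) were less alike. With the group means removed, Abcb11 was closest to Rnf125 (0.886) and the clock gene Clock (0.82), Cyp8b1 to Kcnn2 (0.839), Slc27a5 to Sardh (0.951) and Cyp7a1 to Anks4b (0.662). All points share the diets and the hepatocyte share of the tissue.

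The rest of the pathway was read from 3 lists, beside the shares of all genes given above. Of all genes, 24.6% were higher in Ripk3-/- and 24.9% in Mlkl-/- liver on CD-HFD, and on CD-LFD 13.7% were higher in WT and 14.0% in Ripk3-/- liver. Hepatocyte scaling left 5.62% of all genes lower and 47.2% higher on CD-HFD in WT, 3.2% and 53.4% in Ripk3-/-, and 3.43% and 47.1% in Mlkl-/- liver. Of 12 other enzymes of bile acid synthesis, 9 fell and 1 rose in WT liver on CD-HFD (median log2 change -0.80), 8 fell in Ripk3-/- and 5 fell and 2 rose in Mlkl-/- liver. Scaled to hepatocyte markers, 5 fell and 2 rose in WT, 2 fell and 1 rose in Ripk3-/-, and 2 fell and 4 rose in Mlkl-/- liver. On CD-LFD 5 fell in WT, 4 in Ripk3-/-, and in Mlkl-/- liver 2 fell and 1 rose. No gene of this list met the rule for naming by fold (called, no overlap, and high enough in counts). Chosen after its values were seen, Cyp2c70, which makes muricholic acids in mice, had a log2 change of -1.37 in WT (adjusted p = 0.000288), -2.37 in Ripk3-/- (1.33e-06) and -2.86 in Mlkl-/- liver (6.92e-07), and Ch25h, the riser in WT, was at 0 in 5 of 6 WT controls.

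Among 14 other transporters tested of 15 listed, 8 fell and 4 rose in WT liver on CD-HFD (median -0.76), 5 fell and 3 rose in Ripk3-/- and in Mlkl-/- liver alike. Slco1a1, a sinusoidal organic anion uptake carrier, went from 230 to 530 CPM in WT controls to 7.57 to 58.9 on CD-HFD, a log2 change of -4.12 ± 0.40 (adjusted p = 4.07e-11), with -4.16 in Ripk3-/- and -4.01 in Mlkl-/- liver. The related carriers Slco1b2 and Slco2b1 fell by 1.30 (adjusted p = 1.54e-07) and by 1.13 (adjusted p = 4.42e-08) on the log2 scale in WT. Of the efflux pumps, Abcb1a rose by 2.39 ± 0.38 in WT (adjusted p = 1.53e-06), 2.00 in Ripk3-/- and 2.89 in Mlkl-/- liver, and Abcc4 (MRP4) by 1.74 ± 0.36 (adjusted p = 9.72e-05), 1.52 and 1.74. Abcc4 levels were low, at 1.47 to 2.77 CPM in WT controls and 5.55 to 10.04 on CD-HFD, and its cell of origin was not tested. Hepatocyte scaling gave 5 lower and 5 higher transporters in WT, 2 and 6 in Ripk3-/- and 2 and 4 in Mlkl-/- liver. On CD-LFD 6 transporters fell and 4 rose in WT, 3 fell and 2 rose in Ripk3-/-, and 3 fell and 4 rose in Mlkl-/- liver.

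Of 12 regulators tested of 14 listed, 8 fell and none rose in WT liver on CD-HFD (median -0.59), 9 fell in Ripk3-/-, and 5 fell and 1 rose in Mlkl-/- liver. Klb, the co-receptor through which the gut hormone FGF15 signals to hepatocytes, had 8.22 to 40.4 CPM in WT controls and 4.74 to 7.75 on CD-HFD (-1.94 ± 0.31, adjusted p = 1.73e-06). Hnf4a, a nuclear receptor that defines hepatocytes, had 427 to 851 CPM in WT controls and 336 to 423 on CD-HFD (-0.69 ± 0.19, adjusted p = 0.00233), and its change was -1.25 in Ripk3-/- and -1.22 in Mlkl-/- liver. These counts rested on the scaling: with hepatocyte markers as the scale, 1 regulator fell in each genotype, and 1, 1 and 3 rose. On CD-LFD 5 regulators fell in WT, 3 fell and 1 rose in Ripk3-/-, and 5 fell and 2 rose in Mlkl-/- liver.

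**Figure D4:**
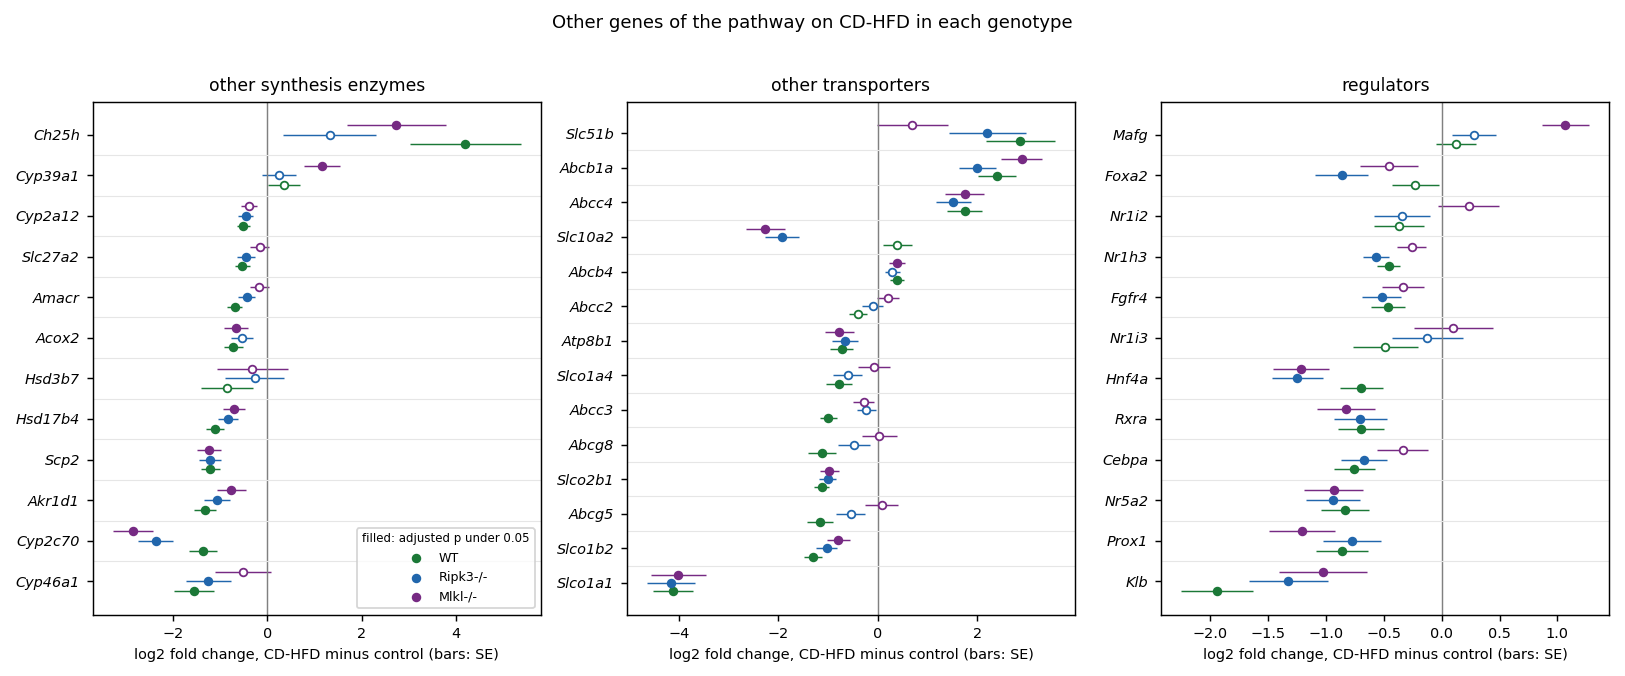
Log2 changes on CD-HFD against control (horizontal axis) of the other synthesis enzymes, transporters and regulators in the 3 genotypes; points are fitted changes, and filled points have an adjusted p under 0.05. Slco1a1 lies near -4 in all 3 genotypes, while Abcb1a and Abcc4 lie above 1.5 in each.

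Some genes outside the 10 members differed between genotypes on control chow. Slc10a2, the apical bile acid transporter best known from ileum and bile duct cells, had 15.1 to 49.1 CPM in WT controls (median 23.0), 34.2, 54.3, 138, 116, 77.7 and 176 in Ripk3-/- controls and 57.0 to 229 in Mlkl-/- controls (median 169). It was higher by 1.88 ± 0.30 in Ripk3-/- (adjusted p = 8.64e-05) and by 2.63 ± 0.31 in Mlkl-/- controls (adjusted p = 8.8e-08, no overlap). All 26 libraries on the choline-deficient diets lay between 22.4 and 54.5 CPM. The interaction terms were -2.32 for Ripk3-/- by CD-HFD (adjusted p = 0.0072), -2.22 for Mlkl-/- by CD-LFD (0.00154), -2.65 for Mlkl-/- by CD-HFD (0.00108) and -1.82 for Ripk3-/- by CD-LFD (0.185). In the WT controls the low-ratio clock libraries had 34.1 and 49.1 CPM of Slc10a2 and the high-ratio ones 15.1 to 24.7. Among low-ratio libraries the excess was 2.02 in Mlkl-/- (adjusted p = 0.00427) and 1.26 in Ripk3-/- controls (adjusted p = 0.17). There the log2 Arntl-to-Dbp ratios of the Mlkl-/- controls (-5.01 to -3.71) still lay above those of the WT controls (-5.84 and -8.01). The summed cholangiocyte markers were at 46.3 to 98.9 CPM in Ripk3-/- and 79.5 to 149 CPM in Mlkl-/- controls, against 46.1 to 83.5 in WT, and the ileal markers Fabp6 and Fgf15 were at 0 in all 18 control libraries.

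Mlkl-/- controls also differed from WT controls in Abcg5, a subunit of the canalicular sterol exporter, at 23.9 to 70.6 CPM (median 39.3) against 79.7 to 178 (median 104), a log2 difference of -1.42 ± 0.27 (adjusted p = 0.000149, no overlap). Its partner subunit Abcg8 was lower by -0.84 (adjusted p = 0.0269), and Mafg, a repressor of bile acid synthesis genes, by -0.86 (adjusted p = 0.000267). The Mlkl-/- by CD-LFD terms were 1.88 for Abcg5 (adjusted p = 0.00229), 1.57 for Abcg8 (0.017) and 1.06 for Mafg (0.00774). Hnf4a was higher by 0.97 in Mlkl-/- (adjusted p = 0.000192) and 0.76 in Ripk3-/- controls (adjusted p = 0.0128). Among low-ratio libraries the Hnf4a call was lost in both (adjusted p = 0.0586 and 0.359), and that of Abcg5 was kept (-1.30, adjusted p = 0.0122), as was that of Mafg (-0.83, 0.00995), while Abcg8 lost it (-1.01, 0.0973). In that set the 2 WT controls had log2 Arntl-to-Dbp ratios of -5.84 and -8.01, and the Mlkl-/- controls -5.01 to -3.71. Phase was therefore not held equal between these groups. Over all genes, calls between Mlkl-/- and WT controls went from 4029 to 1905 among low-ratio libraries. Further calls in Mlkl-/- controls were higher Cyp2c70 (1.26, adjusted p = 0.00215), Prox1 (0.76, 0.00888) and Rxra (0.60, 0.0205), and lower Cyp46a1 (-1.63, 0.00535), Amacr (-0.59, 0.00556), Slco1b2 (-0.58, 0.0149) and Abcc3 (-0.50, 0.0264). Among low-ratio libraries Amacr (0.0202), Slco1b2 (0.0209) and Abcc3 (0.0257) kept an adjusted p under 0.05, and Cyp2c70 (0.0905), Prox1 (0.407), Rxra (0.301) and Cyp46a1 (0.0553) did not. On CD-LFD, Cyp39a1 (1.47, 0.0166) and Slc27a2 (0.73, 0.017) were higher in Mlkl-/- than in WT liver. All 6 WT and none of these Mlkl-/- libraries had a high Arntl-to-Dbp ratio, so phase and genotype cannot be told apart there, and neither gene was called with phase as a covariate (Cyp39a1 0.997, adjusted p = 0.851; Slc27a2 0.43, 0.918). Slc27a2 was higher in Ripk3-/- controls (0.53, 0.0492), but not called among low-ratio libraries (0.50, 0.295).

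**Figure D5:**
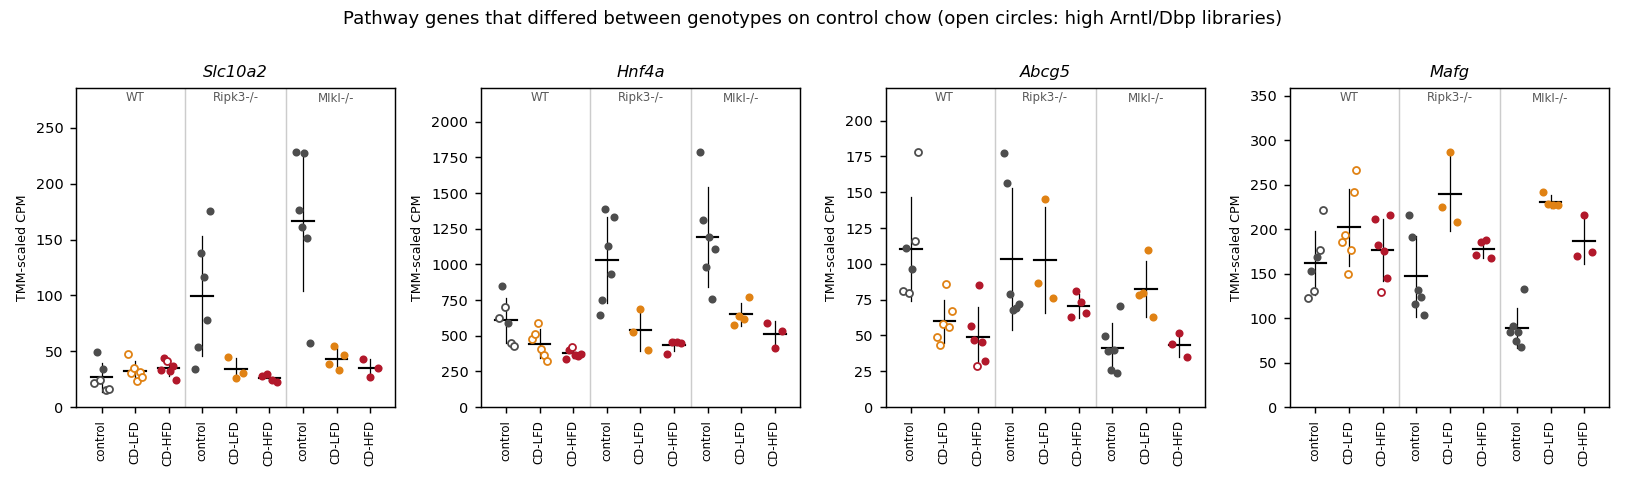
TMM-scaled CPM of Slc10a2, Hnf4a, Abcg5 and Mafg (linear axes from 0) in the 44 libraries by genotype and diet; points are libraries, lines means, bars 1 SD, and open circles the libraries with a high Arntl-to-Dbp ratio. Slc10a2 reaches 229 CPM in Mlkl-/- controls and stays at or below 54.5 CPM in every choline-deficient group.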

How the data were processed

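Mouse liver RNA was sequenced in 44 libraries after a directional library preparation (NEBNext Ultra II Directional, per the labels), and the authors deposited 1 table of raw read counts per gene by Ensembl ID. Per the submitters' processing notes, FastQC, STAR, HTSeq, edgeR and limma were used with build GRCm39 (mm39). Versions, the annotation release and the strand setting of the counting are not given in the sources used here, so reads of overlapping genes cannot be told apart. Of 35249 IDs, 34373 matched a gene symbol and 876 did not.

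From the deposited counts, genes were kept by edgeR's filterByExpr with a minimum count of 10, leaving 14862 genes that hold 99.85% of all counts. After TMM scaling, edgeR's quasi-likelihood test with Benjamini-Hochberg adjustment was fitted over all 44 libraries with 1 mean per group (R 4.3.3, edgeR 4.0.16, limma 3.58.1). There were 19 comparisons at a threshold of 0.05, and the script was tested on simulated data. The SE of a log2 change is its size divided by the square root of the test's F. Count ratios had 0.5 added to each count and were compared by exact permutation tests (Python 3.11.15, SciPy 1.17.1). The alternatives were other scalings, no filter, DESeq2 (1.42.0), fits of the compared groups alone, clock phase, left-out libraries and the replicate number as a block.

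Named were the 10 members and, from 3 lists, up to 3 rises and 3 falls called in WT on CD-HFD with no overlap and a mean log2 CPM of at least 0, plus list genes called between genotypes. The members and lists were chosen with earlier results of these data known. Same replicate numbers do not pair libraries: over 146 pairs of equal number the median correlation of deviations was -0.01 (lowest -0.35, highest 0.54). The hepatocyte marker Tf was not matched. Protein sequences were not used here.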

Additional observations from a re-analysis of the deposited data

Results flagged for a closer look

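Among 70 groups of 4 or 6 libraries tested for a single library far from the others (10 genes in 7 groups), 9 were flagged, each for its highest library. The test flags about 1 in 20 by chance only when values are normally distributed. Here it ran on unlogged CPM, so the 9 cannot be set against that rate. Cyp7a1 was at 251 CPM in Mlkl-/- CD-LFD replicate 4, with the nearest library at 37.3. In the same library Nr1h4 was at 216 CPM, next to 153. Mlkl-/- control replicate 6 was high in Cyp8b1 (375 CPM, next 169) and in Cyp27a1 (741 CPM, next 590), and Mlkl-/- control replicate 5 was high in Nr1h4 (226 CPM, next 160). In WT liver the flagged values were Cyp27a1 in CD-HFD replicate 1 (303 CPM, next 229), Abcb11 in CD-HFD replicate 3 (323 CPM, next 221), the single WT CD-HFD library with a high Arntl-to-Dbp ratio, and Nr0b2 in control replicate 5 (52.9 CPM, next 33.8). Abcb11 in Ripk3-/- control replicate 6 was at 646 CPM, next to 560.

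An interaction term also takes in the difference between genotypes on control chow. The edgeR fit called it (adjusted p under 0.05) in 0.0269% of all genes for Ripk3-/- by CD-LFD and 0.478% by CD-HFD. For Mlkl-/- the shares were 8.45% by CD-LFD and 4.12% by CD-HFD. Among the members and the 3 lists it was called in 9 cases, none of them a member. The terms on the log2 scale were -2.32 for Slc10a2 in Ripk3-/- by CD-HFD, -2.22 and -2.65 for Slc10a2 in Mlkl-/- by CD-LFD and by CD-HFD, 1.88 for Abcg5, 1.57 for Abcg8, 1.29 for Nr1i2 (PXR) and 0.80 for Slc27a2 in Mlkl-/- by CD-LFD, and 1.06 and 0.95 for Mafg in Mlkl-/- by CD-LFD and by CD-HFD. The Mafg term by CD-HFD was not called in 9 of 21 fits that each left out a library, nor among low-ratio clock libraries (0.79, adjusted p = 0.105). With the clock phase as a covariate the Mlkl-/- by CD-LFD terms were 1.48 for Abcg8 (adjusted p = 0.0369), 0.997 for Mafg (0.0177), 1.07 for Nr1i2 (0.0318) and 0.71 for Slc27a2 (0.0748, not called). Only the WT control and WT CD-HFD groups held both phases, so the covariate was estimated from them alone. Among low-ratio clock libraries the Slc10a2 term by CD-HFD was -1.67 in Ripk3-/- (adjusted p = 0.14) and -2.05 in Mlkl-/- liver (adjusted p = 0.0365). The Mlkl-/- and WT controls of that set still differed in Arntl-to-Dbp ratio, as given above.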

How the results depend on the processing

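The median change of all genes in WT on CD-HFD was -0.07 with TMM, 0.43 with library size alone and 0.49 with hepatocyte markers, and the share of called genes that were higher was 49.4%, 87.0% and 89.4%. Of 98 gene values, 79 kept direction and call with library size alone, 68 with hepatocyte markers, 96 with RLE size factors and 97 with DESeq2. For CD-HFD against control, the number of members called in either direction stayed within 1.5 times of the 8, 8 and 7 given under every alternative run, but in Mlkl-/- liver the 7 became 6 lower and Nr0b2 higher with library size alone and with hepatocyte markers.

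Member counts moved elsewhere, given here with the share of all genes called in either direction by the same fit. Hepatocyte scaling gave 4 members for WT CD-HFD against CD-LFD (25.0%), 1 for Ripk3-/- (10.9%; also 1 with library size alone, 10.3%, and 5 in a fit of these groups alone, 20.6%), 2 for Mlkl-/- (49.7%) and 2 for Ripk3-/- against WT on control chow (10.5%). Within the high clock phase, WT CD-LFD against control gave 3 members (10.4%). For Mlkl-/- against WT controls, with 2 members called, the count was 1 in a fit of these groups alone (Cyp8b1, 15.2%) and without WT control replicates 5 and 6 (Cyp8b1, 19%), 1 with the clock covariate (Nr1h4, neither of those 2, 17.0%), 4 with DESeq2 (29.9%), and 0 within the low phase (12.7%). For Mlkl-/- against WT on CD-LFD it was 1 under RLE (2.63%), no filter (0.843%), DESeq2 (4.16%) and in the fit of these groups alone (4.49%), which was Cyp7b1, and 1 under library size (5.87%) and hepatocyte scaling (13.9%), which was Abcb11. In the ratios, Cyp7a1 to Cyp7b1 was 1.54 within the high phase on CD-LFD (adjusted p = 0.0476 over only 2 tests, called) and 1.04 within the low phase on CD-HFD, and Cyp8b1 to Cyp7a1 turned to -0.10 and 0.30 there (all WT). The cause was not tested.

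Directions turned mainly in uncalled values. With library size alone the reversed values were Cyp7a1 0.26 (Mlkl-/- CD-HFD), Cyp8b1 0.14 (Ripk3-/- CD-HFD) and 0.071 (WT CD-LFD), Nr0b2 0.12 (Ripk3-/- CD-LFD) and Nr1h4 0.064 (WT CD-LFD). Hepatocyte scaling gave, for the same 5, 0.43, 0.31, 0.048, 0.13 and 0.026, and further Nr1h4 0.051 (Ripk3-/- CD-HFD), Cyp7a1 0.30 (Mlkl-/- CD-HFD against CD-LFD) and, for Ripk3-/- CD-HFD against CD-LFD, Baat 0.066, Cyp27a1 0.0094, Nr1h4 0.080 and Slc27a5 0.037. The clock covariate turned Cyp7a1 in WT CD-HFD against CD-LFD to -0.995.

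With the replicate number as a block, all 19 member counts stayed within 1.5 times, and of 98 gene values Cyp7a1 in Mlkl-/- on CD-LFD turned to -0.12. A further 2 lost a call (Cyp8b1 0.86, Mlkl-/- CD-LFD; Slc10a1 -0.69, WT CD-HFD against CD-LFD) and 2 gained one (Nr0b2 -0.96, adjusted p = 0.0346, WT CD-HFD against CD-LFD; Slc10a1 -0.87, adjusted p = 0.0213, Mlkl-/- CD-LFD), although the numbers do not pair the libraries.

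Leaving out 1 library at a time gave 3 to 7 members for Ripk3-/- CD-LFD, 1 to 2 for Ripk3-/- CD-HFD against CD-LFD, 1 to 3 for Mlkl-/- against WT controls, and 0 to 1 for Ripk3-/- against WT controls, Mlkl-/- against WT on CD-LFD and the 3 interactions Ripk3-/- by CD-HFD and Mlkl-/- by each diet. The shares of all genes called in these fits are not given here, so whether the shifts are particular to the members cannot be read from them. The Cyp7a1 to Cyp7b1 difference on CD-HFD was 1.84 to 2.42 in WT (adjusted p up to 0.0648) and 3.40 to 3.996 in Ripk3-/- liver (up to 0.0714), and Cyp8b1 to Cyp7a1 in Mlkl-/- on CD-HFD was -1.37 to 0.49. Reversals were seen for Cyp7a1 in Mlkl-/- (-1.30 to 0.46 on CD-LFD, -0.85 to 0.21 on CD-HFD, -1.001 to 1.07 between the diets) and WT between the diets (-0.067 to 0.30), Cyp8b1 in WT on CD-LFD (-0.32 to 0.030), Nr0b2 in Mlkl-/- on CD-HFD (-0.046 to 0.91) and Ripk3-/- on CD-LFD (-0.55 to 0.012), and Nr1h4 in Mlkl-/- on CD-LFD (-0.077 to 0.20). The 2 libraries that went against their genotype's target gene changed none of 43 gene values when left out. Groups of 3 and 4 libraries limit what the knockouts can show.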
